A study of Bos taurus with 111 samples.

Results

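Residual feed intake (RFI) is the gap between what an animal eats and what its size and growth predict, so a steer of low RFI (L-RFI) is an efficient eater and one of high RFI (H-RFI) an inefficient eater. The comparison described here is that of L-RFI with H-RFI Holstein-Friesian (HF) steers in the first high concentrate phase (H1), named HF-H1. Its members were all libraries labelled breed HF and diet H1 that held at least 1000000 counts on genes. Of the 111 libraries of the series 21 carried these labels and 20 passed, 9 from L-RFI and 11 from H-RFI steers. The 1 library left out, that of L-RFI steer 8, held 102714 counts.

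All 20 steers received rolled barley, soya bean meal, molasses and minerals at 860, 60, 60 and 20 g/kg ad libitum with a limited amount of grass silage, over a phase of 70 d. The HF steers of the study averaged 306 d of age (SD 7.7) and 294 kg (SD 42.3) at its start. RFI was computed within breed and phase as the residual of dry matter intake regressed on daily gain and metabolic body weight. The planned groups were the 12 most and 12 least efficient of 77 HF steers. Both classes are thus the extremes of 1 set of animals and differ by no treatment, and no genotype of the steers was at hand. RNA came from a biopsy of the M. longissimus thoracis et lumborum, the long muscle of the back. Each steer gave 1 library, and steers are numbered within their class.

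Skeletal muscle burns fuel in mitochondria, which carry their own small genome for part of the respiratory chain, while the rest of that chain is encoded in the nucleus. Its fibres differ in their myosins, and fat cells lie between them that make and store triglyceride and that a biopsy takes along. Stress, contraction and the handling of tissue switch on immediate early genes within minutes in many cell types.

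Depth differed little between the classes. Counts on genes ranged from 4697169 to 26197078 with a median of 17131622 in L-RFI and from 8905583 to 27803073 with a median of 13618900 in H-RFI. On the log10 scale the classes differed by -0.06 (7.12 ± 0.264, SD, in L-RFI and 7.17 ± 0.139 in H-RFI; two-sided exact permutation test over 167960 arrangements, p = 0.548). The floor of detection, taken as 3 counts, lay between 0.108 and 0.639 CPM, the counts in each 1000000 counts on genes. The library of L-RFI steer 6 stood apart, with 45.7% of its reads on genes, 35.0% mapped to several places and 13.3% unmapped. In the other 19 libraries 74.0% to 85.3% of the reads lay on genes. The TMM factors, which scale each library so that most genes match between libraries, were below 0.9 in 5 of the 9 L-RFI libraries (steers 4, 6, 7, 9 and 10) and in 1 of the 11 H-RFI libraries (steer 4). In those 5 L-RFI libraries the 10 most abundant genes took 34.4% to 43.2% of the counts, against 26.4% to 29.8% in the other 4. Values without the TMM factor, and without L-RFI steers 6 and 10, stand beside the results that turn most on them.

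No gene passed the thresholds. Of 10812 genes tested with edgeR's quasi-likelihood test, 0 (0%) had an adjusted p-value under 0.1 with a fold change above 1.5, and the smallest adjusted p-value was 1.00. At an unadjusted p-value under 0.05 there were 317 genes (2.93%), below the 541 that this level gives by itself, with 195 higher (1.8%) and 122 lower (1.13%) in L-RFI. The exact test of edgeR, DESeq2 and limma voom with quality weights also called 0 genes, with 367, 403 and 318 genes at an unadjusted p-value under 0.05. The median log2 fold change over all genes was 0.03, and 56.7% of the genes lay above 0. In 0 of the 10812 genes did the 9 L-RFI and 11 H-RFI values stand clear of each other. The values that follow therefore describe these 20 steers, and no gene among them is called different. "Normalized CPM" is the CPM after the TMM factor, and every log2 fold change is L-RFI over H-RFI, so that a positive value means higher in efficient steers.

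The study listed 44 genes for this comparison, chosen on these same steers, so its list is no independent evidence of direction. The files used here held 36 of them, of which 33 passed the filter on low counts, 26 above and 7 below 0. An unadjusted p-value under 0.05 was found for 18 of the 33, and 32 differed by more than 1.5-fold, against 1.63% (higher) and 0.416% (lower) of all genes. Both shares come with the choice of the list and are no test. A symbol was at hand for 26 of the 33. Of these 19 had values above and 7 below 0. Symbols came only from the study's lists of genes it called in one or another of its comparisons, so the members of any gene list that could be followed are a selected few, and the counts of signs given for the lists are descriptions.

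**Figure D1:**
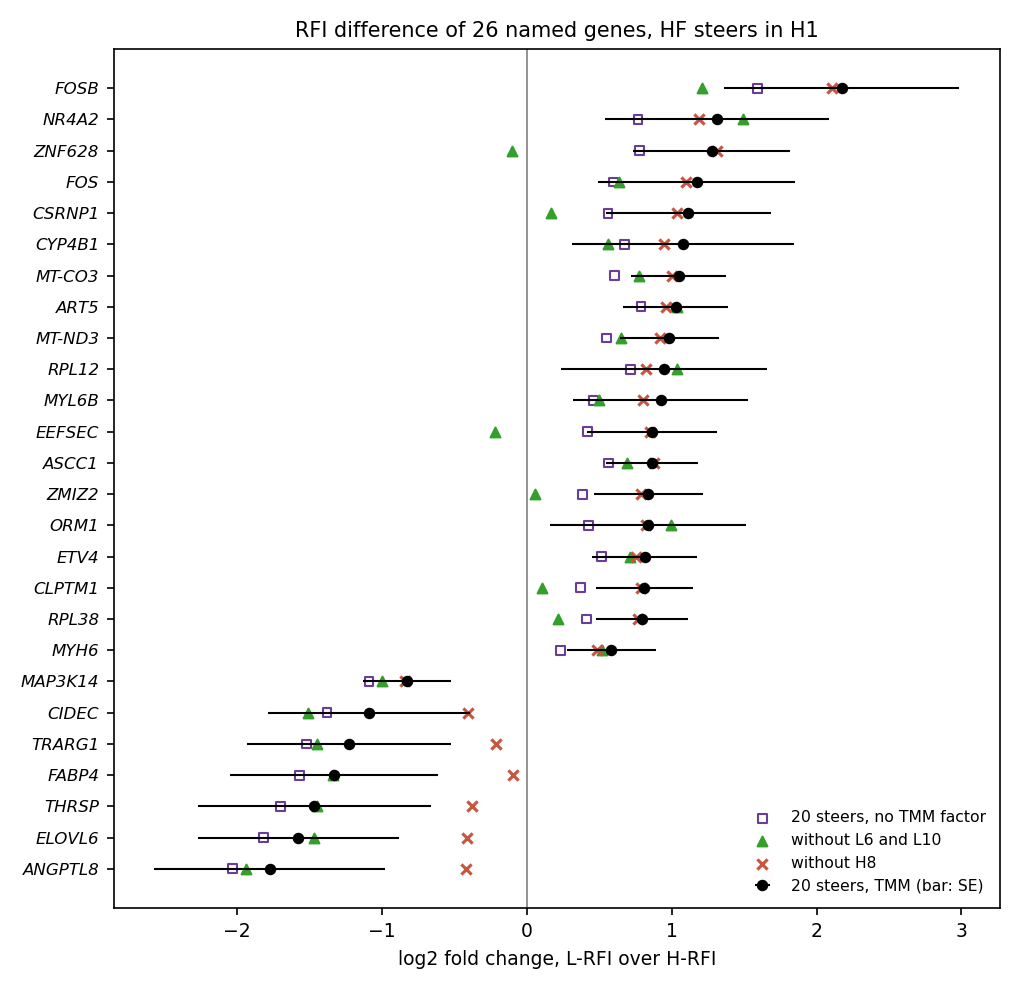
Log2 fold changes of the 26 named genes of the study's list that passed the filter, with bars of 1 SE, and the same value without the TMM factor, without L-RFI steers 6 and 10 (L6 and L10) and without H-RFI steer 8 (H8). The 6 genes of fat metabolism move towards 0 without H8, while EEFSEC and ZNF628 cross 0 without L6 and L10.

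Genes of fat synthesis and fat cells had lower fitted levels in L-RFI, and a single inefficient steer made most of that difference. THRSP, a nuclear protein that raises the transcription of fat synthesis genes, had 0.519, 4.58 and 18.7 normalized CPM (lowest, median and highest) in L-RFI and 1.32, 4.41 and 119.8 in H-RFI. The class medians were thus almost equal, and 2 H-RFI steers, 8 and 7 with 119.8 and 39.5, lay above every L-RFI steer. The log2 fold change of THRSP was -1.47 (SE 0.80, unadjusted p = 0.080, adjusted p = 1.00) and -0.38 without H-RFI steer 8.

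ELOVL6, which lengthens fatty acids, ranged from 0.811 over a median of 1.62 to 7.89 in L-RFI and from 0.733 over 2.51 to 50.6 in H-RFI. Its log2 fold change was -1.58 (SE 0.70, unadjusted p = 0.033, adjusted p = 1.00) and fell to -0.41 without H-RFI steer 8. FASN, the fatty acid synthase and the best known enzyme of the pathway, had medians of 64.8 in L-RFI and 54.8 in H-RFI, with H-RFI steer 8 at 450.4. The value for FASN was -0.58 (SE 0.47) over the 20 steers and 0.04 without that steer, so that its direction turned.

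The same order held for the fat cell genes. FABP4, the fatty acid binding protein of adipocytes, ranged from 0.876 over 3.23 to 13.2 in L-RFI and from 1.201 over 4.60 to 81.8 in H-RFI. Its log2 fold change of -1.33 (SE 0.72) became -0.09 without H-RFI steer 8. CIDEC, a protein of the lipid droplet surface that makes droplets fuse, had medians of 3.03 and 2.70 in L-RFI and H-RFI and reached 8.47 and 35.0. Its value was -1.09 (SE 0.70), or -0.40 without H-RFI steer 8.

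TRARG1, which controls the movement of the insulin-sensitive glucose transporter in fat, had the higher median in L-RFI (2.80 against 1.62) but the higher maximum in H-RFI (37.2 against 6.31). The log2 fold change of TRARG1 was -1.23 (SE 0.70), or -0.21 without H-RFI steer 8. ANGPTL8, a secreted protein that restrains lipoprotein lipase, had medians of 1.52 and 1.53 and maxima of 3.54 in L-RFI and 35.0 in H-RFI. At -1.78 (SE 0.80, unadjusted p = 0.036, adjusted p = 1.00) its fold change was the furthest below 0 of the 26 named genes of the study's list, and without H-RFI steer 8 it was -0.42.

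**Figure D2:**
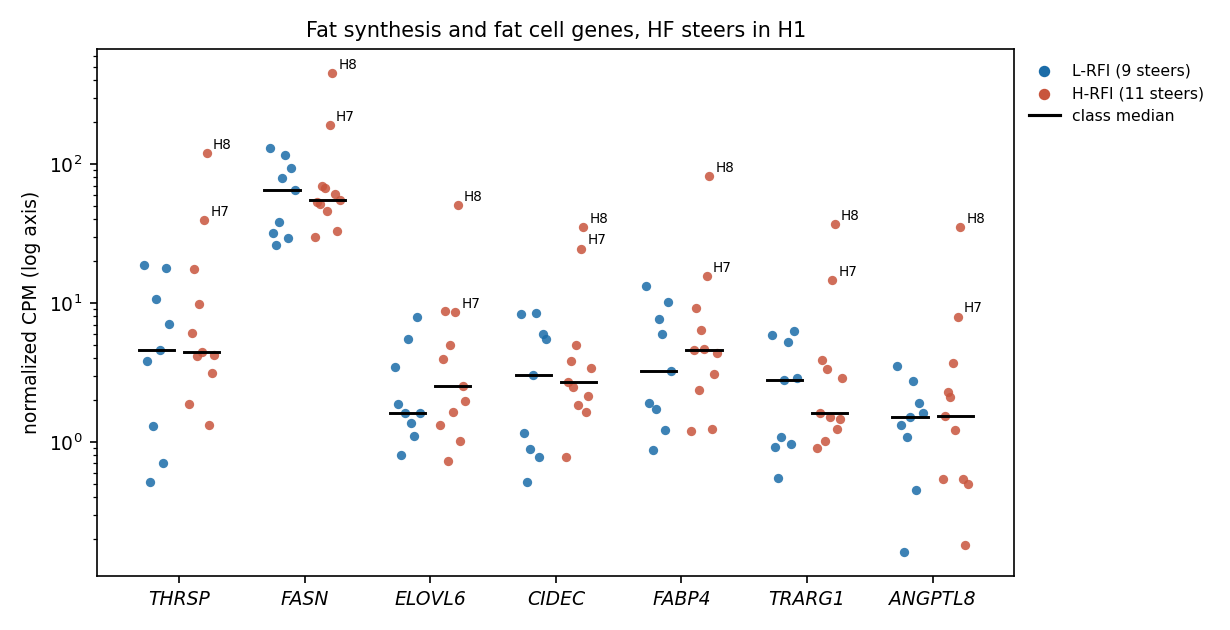
Normalized CPM of 7 genes of fat synthesis and fat cells in each steer, on a log axis, with the class medians as bars. H-RFI steer 8 (H8) holds the highest value of every gene and H-RFI steer 7 (H7) the second highest of all but ELOVL6, while the remaining steers of both classes overlap.

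Of the fixed lists, that of fat synthesis had 3 of its 25 members with a symbol and all 3 kept, with 0 called and 0 above and 3 below 0 (median log2 fold change -1.47, against 0.03 over all genes). THRSP and ELOVL6, like all 4 fat cell genes, stand on the study's list chosen on these steers, which fixes much of that direction. ELOVL6 was the 1 member with an unadjusted p-value under 0.05. The list of fat cell genes had 4 of its 24 members kept, 0 called, 0 above and 4 below 0 (median -1.28), with ANGPTL8 under 0.05. The summed level of the 4 fat cell genes was 2.11 to 30.9 normalized CPM in L-RFI (median 13.2) and 3.42 to 189.0 in H-RFI (median 10.5). In a biopsy, fewer fat cells and less RNA per fat cell cannot be told apart.

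These genes varied together from steer to steer. Across the 20 steers the log2 level of CIDEC followed that of FABP4 with a Pearson r of 0.92 and a Spearman rho of 0.90, and that of THRSP with 0.91 and 0.91. For all 4 values the permutation p-value was 1e-05, the smallest that 100000 permutations can give, and 2e-05 after Benjamini-Hochberg adjustment over the 6 pairs of genes computed. Without H-RFI steers 7 and 8, the steers farthest from the median of CIDEC, r was 0.87 and 0.85. With the class means subtracted r was 0.91 in both pairs, so the relation lay within the classes.

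H-RFI steer 8 was biopsied again in the next phase, on zero-grazed grass (ZG), and again ranked H-RFI. Scaled over all HF libraries together, its THRSP was 106.6 normalized CPM in H1 and 0.781 in ZG. FABP4 in that steer was 72.7 and 1.98, CIDEC 31.2 and 0.989, and ELOVL6 45.0 and 0.937. The high levels of H-RFI steer 8 were thus found in its H1 biopsy and not in its ZG biopsy. Of the 20 steers 11 had a second library counted here, 6 in ZG and 5 in the second concentrate phase (H2), and 4 of the 11 were in the other RFI class there. L-RFI steer 10 also has a library labelled H-RFI in H2, which is not in these counts. THRSP and FABP4 were higher in H2 than in H1 in 5 of 5 steers, and in ZG in 3 of 6 and 4 of 6, with phase and age not separable. The rise in H2 was not particular to fat genes. MT-CO3 and MT-ND3 were also higher there in 5 of 5 steers, but FOS in 2 of 5 and FOSB in 1 of 5. The share over all genes is not given here.

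Genes of fuel choice did not share that order. PDK4, the kinase that shuts pyruvate out of mitochondria when fat is burnt, ranged from 14.6 over 84.3 to 422.7 normalized CPM in L-RFI and from 11.4 over 60.4 to 431.3 in H-RFI. The classes covered the same range, with a log2 fold change of 0.23 (SE 0.68), and without the TMM factor its sign turned (-0.04). SLC27A6, a fatty acid transport protein, had medians of 3.15 and 3.70 and a value of 0.38 (SE 0.46), or 0.070 without L-RFI steer 3. Of the 34 genes of that list 4 were kept, 3 above and 1 below 0, with a median of 0.22 and 0 at an unadjusted p-value under 0.05.

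MT-CO3 and MT-ND3, 2 of the 13 mitochondrially encoded genes of the respiratory chain, had higher values in efficient steers, though neither was called, and both come from the study's list. MT-CO3, a subunit of cytochrome c oxidase at the end of the respiratory chain, had 12185, 30942 and 68539 normalized CPM (lowest, median and highest) in L-RFI and 9060, 14858 and 27674 in H-RFI. The 5 L-RFI steers above the highest H-RFI steer were 4, 6, 7, 9 and 10, the same 5 whose TMM factors were below 0.9, and all 11 H-RFI steers lay below the L-RFI median. The log2 fold change of MT-CO3 was 1.05 (SE 0.33, unadjusted p = 0.0038, adjusted p = 1.00), the smallest p-value of any gene with a symbol.

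MT-ND3, a subunit of the first complex of the chain, ranged from 3317 over 7225 to 22462 in L-RFI and from 2495 over 4929 to 9847 in H-RFI. Its value was 0.98 (SE 0.34, unadjusted p = 0.0084, adjusted p = 1.00), with 4 L-RFI steers above every H-RFI steer. Leaving out any 1 steer kept MT-CO3 between 0.84 and 1.16 and MT-ND3 between 0.70 and 1.13. No other mitochondrially encoded gene had a symbol at hand, so the group as a whole was not seen. The paper also names ATP8 as higher in L-RFI HF steers in this phase, but that gene could not be followed by name.

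Part of the size rested on the scaling. Without the TMM factor MT-CO3 was at 0.60 and MT-ND3 at 0.55, where the median of all genes was itself at -0.19 in place of 0.03. As a plain share of a library's gene counts MT-CO3 took 1.55% to 4.63% in L-RFI (median 2.59%) and 1.01% to 2.54% in H-RFI (median 1.71%), and the same count of 5 L-RFI libraries lay above all H-RFI libraries. Without L-RFI steers 6 and 10 MT-CO3 was at 0.77 and MT-ND3 at 0.65. The part of library composition in the difference was not tested. Reads mapped to several places were not counted on genes, so reads that these genes share with nuclear copies are missing. MT-CO3 and MT-ND3 rose and fell together across steers (r = 0.97, rho = 0.94, adjusted permutation p = 2e-05, r = 0.95 without L-RFI steers 9 and 10).

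**Figure D3:**
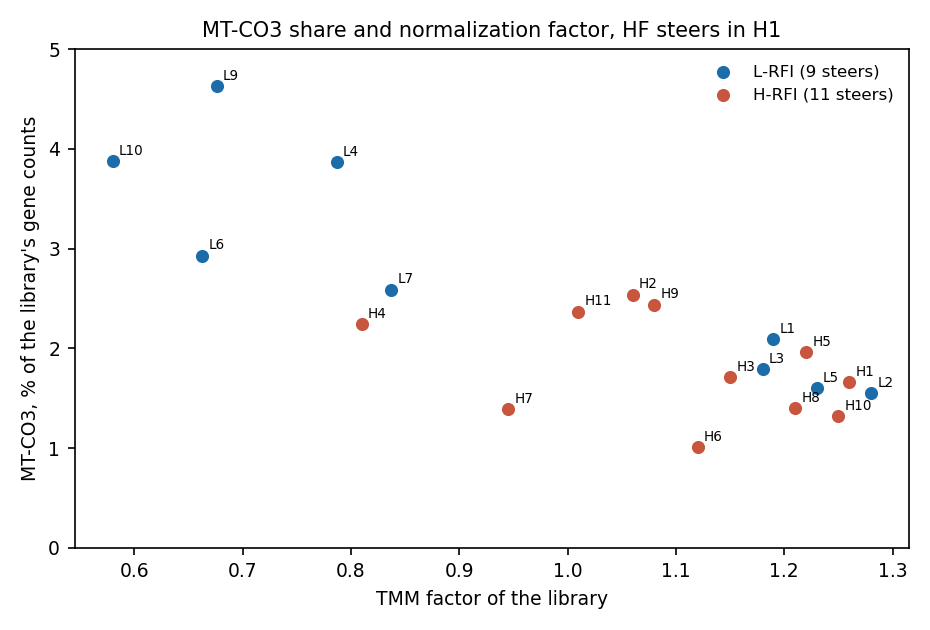
Share of MT-CO3 among the gene counts of each library (percent) against the TMM factor of that library, with steers labelled by class (L or H) and number. The 5 L-RFI steers with shares of 2.59% to 4.63% are the ones with factors below 0.9, and the other 4 lie among the H-RFI steers.

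NDUFA3, a nuclear subunit of the first complex and the only 1 of 80 nuclear respiratory chain genes with a symbol, had medians of 37.1 in L-RFI and 30.3 in H-RFI with a value of 0.53 (SE 0.34). It fell to 0.05 without L-RFI steers 6 and 10. Whether the nuclear part of the chain as a whole differed could not be seen from 1 gene.

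Among genes of translation, RPL38, a protein of the large ribosomal subunit, ranged from 33.6 over 63.9 to 238.1 normalized CPM in L-RFI and from 25.4 over 47.5 to 109.2 in H-RFI. The log2 fold change was 0.80 (SE 0.32, unadjusted p = 0.019, adjusted p = 1.00). RPL12, another protein of that subunit, was listed at 0 in L-RFI steer 9 and reached 41.3 in L-RFI steer 4, with medians of 10.8 and 8.77 and a value of 0.94 (SE 0.71), or 0.52 without L-RFI steer 4. Ribosomal protein genes have many near-identical copies, so both levels are uncertain. EEFSEC, the elongation factor that inserts selenocysteine, had medians of 15.9 and 11.7 and a value of 0.86 (SE 0.45).

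RPL38, EEFSEC and 3 other genes of the study's list shared 1 pattern. In RPL38, EEFSEC, ZNF628, a zinc finger protein, CLPTM1, a transmembrane protein, and ZMIZ2, a coactivator of transcription, the 2 highest L-RFI values were those of steers 6 and 10 and the highest H-RFI value that of steer 4. L-RFI steers 6 and 10 had the lowest TMM factors of all 20 libraries (0.663 and 0.58) and H-RFI steer 4 the lowest of its class (0.81). Over the 20 steers the log2 fold changes were 1.28 (SE 0.54) for ZNF628, 0.81 (SE 0.33) for CLPTM1 and 0.84 (SE 0.38) for ZMIZ2. Without L-RFI steers 6 and 10 ZNF628 was at -0.11, EEFSEC at -0.22, ZMIZ2 at 0.05, CLPTM1 at 0.10 and RPL38 at 0.21. The median over all genes was then -0.00289. L-RFI steers 6 and 10 held the highest L-RFI values of each of these genes, so lower values were bound to follow their removal. H-RFI steer 4 was kept in that fit.

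Among the immediate early genes, FOS, FOSB, NR4A2, NR4A1, CSRNP1 and EGR1 had their highest values in L-RFI steer 4 or 6. FOSB, a subunit of the AP-1 transcription factor, ranged from 0.805 over 3.47 to 147.6 normalized CPM in L-RFI and from 0.547 over 3.66 to 25.8 in H-RFI. The H-RFI median was thus the higher, while L-RFI steers 6 and 4, with 147.6 and 71.8, lay above all H-RFI steers. Its log2 fold change of 2.17 (SE 0.81, unadjusted p = 0.013, adjusted p = 1.00) was the furthest above 0 of the 26 genes, fell to 1.19 without L-RFI steer 6 and turned to -0.41 in limma voom with quality weights.

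FOS, another member of the same family, ranged from 13.2 over 29.6 to 358.5 in L-RFI and from 6.199 over 20.7 to 196.6 in H-RFI, with H-RFI steer 1 at the upper end. The value of FOS was 1.17 (SE 0.68), or 0.52 without L-RFI steer 6. NR4A2, an orphan nuclear receptor, had medians of 7.10 and 4.09 and its peak of 79.1 in L-RFI steer 4. Its log2 fold change of 1.31 (SE 0.77) became 0.33 without that steer. CSRNP1, a nuclear protein of the early response, peaked at 80.6 in L-RFI steer 6, with a value of 1.12 (SE 0.57) over all steers, 0.33 without L-RFI steer 6 and -0.01 with quality weights.

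NR4A1, a nuclear receptor close to NR4A2, had medians of 224.2 and 135.0 and a value of 0.56 (SE 0.36), with 7 of 9 L-RFI steers above the H-RFI median. It was at 0.12 without the TMM factor and 0.32 without L-RFI steer 6. EGR1, a zinc finger factor of the same early wave, did not follow them: its medians were 7.94 in L-RFI and 9.20 in H-RFI and its value -0.10 (SE 0.38). Of the 36 early genes 16 were kept, 0 called, 13 above and 3 below 0, with a median of 0.29 and 1 at an unadjusted p-value under 0.05, against 56.7% above 0 and a median of 0.03 over all genes. The count includes 4 genes of the study's list, chosen on these steers, and the sign of 8 of the 16 turned when 1 steer was left out. The highest value belonged to an H-RFI steer in 3 of the 16, NR4A3, JUNB and PIM1.

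**Figure D4:**
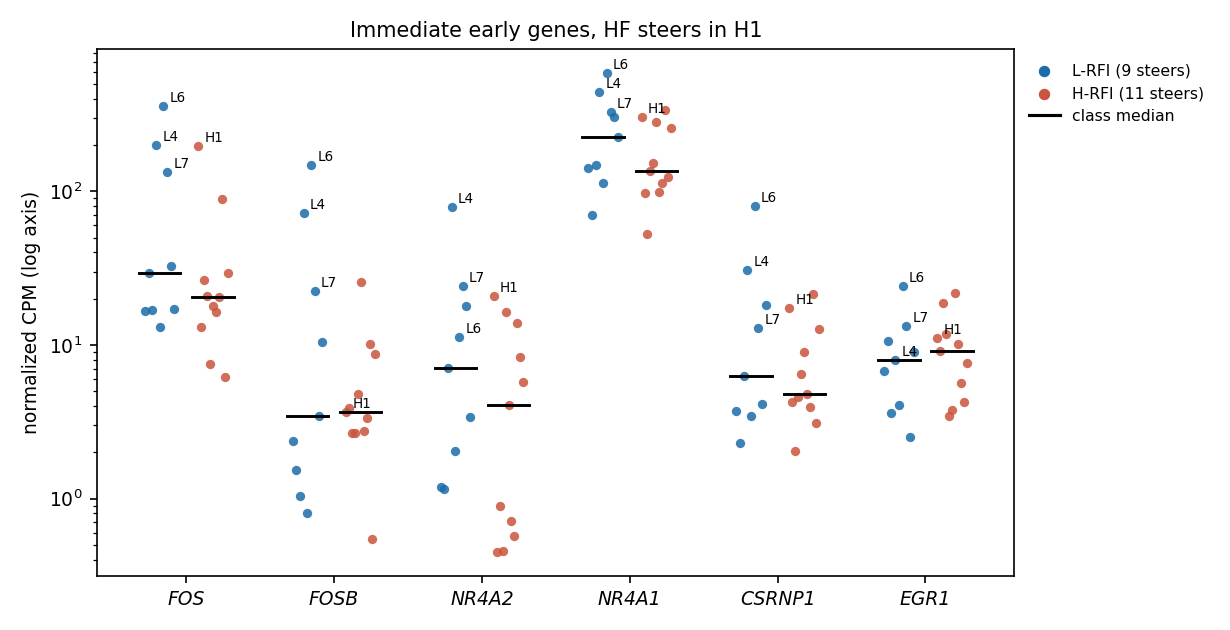
Normalized CPM of 6 immediate early genes in each steer, on a log axis, with class medians as bars and L-RFI steers 4, 6 and 7 and H-RFI steer 1 labelled. L6 or L4 holds the highest value of FOS, FOSB, NR4A2, NR4A1 and CSRNP1, and the class medians of FOSB lie at 3.47 and 3.66.

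FOS and FOSB were related across the 20 steers (r = 0.71, rho = 0.55, adjusted permutation p = 0.00088 and 0.022), with r = 0.46 without L-RFI steers 4 and 6. FOS and EGR1 were less closely so (r = 0.45, rho = 0.39, adjusted permutation p = 0.049 and 0.089), with r = 0.33 without those steers.

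No slow or fast fibre gene that was kept had an unadjusted p-value under 0.05. MYH6, the alpha myosin heavy chain of heart and of some slow fibres, ranged from 122.6 over 490.4 to 1023 normalized CPM in L-RFI and from 96.1 over 325.9 to 525.8 in H-RFI. With 7 of 9 L-RFI steers above the H-RFI median its log2 fold change was 0.58 (SE 0.31, unadjusted p = 0.072, adjusted p = 1.00), and 0.23 without the TMM factor. MYL6B, a myosin light chain of slow muscle, reached 1455 in L-RFI steer 10, with medians of 220.4 and 132.6 and a value of 0.92 (SE 0.60) that fell to 0.42 without that steer.

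CSRP3, the muscle LIM protein of the sarcomere edge, had medians of 181.1 and 184.0 and a value of -0.07 (SE 0.47). MYH4, the heavy chain of the fastest fibres, lay between 1.78 and 6.88 in all steers with a value of 0.15 (SE 0.26). Of the slow fibre genes 3 of 18 were counted as kept, 2 above and 1 below 0, and 1 of 16 fast fibre genes. That count misses phospholamban, PLN on the list but Pln among the symbols. It was also kept, at 0.34 (SE 0.28). MYH6 and MYL6B were related across steers (r = 0.57, rho = 0.50, adjusted permutation p = 0.0095 and 0.030), with r = 0.45 without L-RFI steer 2 and H-RFI steer 8. Without the TMM factor r was 0.38 with an adjusted permutation p of 0.12.

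MYH8, the perinatal myosin heavy chain, pointed the other way, and 8 of 9 L-RFI steers lay below the H-RFI median of 34.5, with an L-RFI median of 18.9. Its log2 fold change was -0.54 (SE 0.27, unadjusted p = 0.058, adjusted p = 1.00). CHRND, the delta subunit of the acetylcholine receptor of muscle, had medians of 1.82 and 1.28, and the 3 L-RFI steers above all H-RFI steers were 10, 9 and 6. Its value of 0.95 (SE 0.45, unadjusted p = 0.047, adjusted p = 1.00) fell to 0.12 without L-RFI steers 6 and 10. Of the 17 developmental and synaptic genes 4 were kept, 2 above and 2 below 0.

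The remaining genes of the study's list have varied roles. ART5, an ADP-ribosyltransferase, ranged from 6.003 over 13.9 to 31.0 normalized CPM in L-RFI and from 1.81 over 5.95 to 14.4 in H-RFI. All 9 L-RFI steers lay above the H-RFI median, and the log2 fold change of 1.03 (SE 0.36, unadjusted p = 0.0093, adjusted p = 1.00) stayed at 0.78 or above whichever steer was left out and without the TMM factor. ASCC1, a subunit of a transcription coactivator and RNA repair complex, had medians of 12.0 and 6.07 and a value of 0.86 (SE 0.32), with 4 L-RFI steers above all H-RFI steers.

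MAP3K14, the kinase that starts the noncanonical NF-kappa B pathway, was the 1 gene of the list outside fat metabolism with a symbol and a value below 0. It ranged from 7.58 over 14.3 to 31.1 in L-RFI and from 13.2 over 21.9 to 79.2 in H-RFI, where 10 of 11 steers lay above the L-RFI median. The log2 fold change of MAP3K14 was -0.83 (SE 0.30, unadjusted p = 0.012, adjusted p = 1.00), or -0.55 without H-RFI steer 6. Of the 34 growth and atrophy regulators 5 were kept, 2 above and 3 below 0. DDIT4, an inhibitor of the growth kinase mTOR, had a value of 0.29 (SE 0.37), or -0.033 without the TMM factor.

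ETV4, an ETS family transcription factor, had medians of 4.12 and 2.13 with 8 of 9 L-RFI steers above the H-RFI median and a value of 0.81 (SE 0.36). It was listed at 0 in H-RFI steer 7. CYP4B1, a cytochrome P450 enzyme, was scattered in both classes, from 0.492 over 8.64 to 32.8 and from 0.240 over 1.79 to 17.2, with a value of 1.08 (SE 0.77). It was at 0.67 without the TMM factor, 0.56 without L-RFI steers 6 and 10 and 0.21 with quality weights. GSTM3, a glutathione transferase and the other kept member of the 30 detoxification genes, had a value of 0.25 (SE 0.37), or -0.081 without L-RFI steer 6. ADAMTS8, a secreted metalloprotease, did not pass the filter: its medians were 0.787 and 0.829, and 1 L-RFI steer, 9, held 23.3. HBD, a globin, had 0 counts in all 20 libraries, which allows up to 0.639 CPM in the shallowest. PRR33 was not analysed here.

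Among genes with a symbol, TBX3 and NTN4 completed the 10 smallest p-values below 0, at unadjusted p-values of 0.13 and 0.15 (adjusted p = 1.00). TBX3, a T-box transcription factor, had medians of 3.17 and 4.30 and a value of -0.51 (SE 0.32). NTN4, a netrin of basement membranes, had medians of 2.39 and 2.54 and a value of -0.46 (SE 0.31), or -0.22 without H-RFI steer 1. Genes without a symbol at hand held the smallest p-values of all. ENSBTAG00000043567 ranged from 485.1 over a median of 1055 to 8037 in L-RFI and from 413.6 over 698.6 to 992.3 in H-RFI. Its log2 fold change was 1.49 (SE 0.42, unadjusted p = 0.0017). ENSBTAG00000008743 lay between 129.0 and 241.4 in L-RFI and between 204.1 and 293.1 in H-RFI, with a log2 fold change of -0.43 (SE 0.12, unadjusted p = 0.0021). Their adjusted p-values were 1.00.

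Markers of other tissues were present at uneven levels. Liver and plasma protein genes had 11 of 20 members kept, 0 called and 11 above 0 (median 0.33), but the sign of 10 of the 11 turned when 1 steer was left out. Without L-RFI steer 4 ALB was at -0.40, FGG at -0.17 and FGB at -0.15, the last 2 being chains of fibrinogen. Over the 20 steers the summed level of these genes ran from 41.8 to 1500 normalized CPM in L-RFI (median 286.9) and from 34.8 to 1613 in H-RFI (median 166.0). ALB, albumin, was highest in H-RFI steer 5 with 1007 and in L-RFI steer 4 with 832.6, with a value of 0.16 (SE 0.68), or -0.27 without the TMM factor. ORM1, an acute phase protein of the study's list, peaked in the same L-RFI steer 4 with 72.2, and its log2 fold change of 0.83 (SE 0.68) was -0.09 without that steer. The part of such RNA in the value of ORM1 was not tested.

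Leukocyte genes had 11 of 25 members kept, 7 above and 4 below 0 (median 0.19), with summed levels of 11.04 to 95.4 in L-RFI and 13.7 to 55.1 in H-RFI. The sign of 9 of the 11 turned when 1 steer was left out. PTPRC, the pan-leukocyte phosphatase, had a value of 0.05 (SE 0.37) and CD3E, a chain of the T cell receptor complex, 0.45 (SE 0.39), or -0.14 without L-RFI steer 4. L-RFI steer 4 held the highest L-RFI value of both. Interferon-induced genes had 5 of 28 members kept, all 5 above 0 (median 0.34), led by UBD, a ubiquitin-like modifier, with 0.80 (SE 0.50), and IFIT3, an antiviral protein, with 0.34 (SE 0.30). UBD fell to 0.20 without L-RFI steer 4 and IFIT3 to 0.095 without L-RFI steer 3, and IDO1, an enzyme of tryptophan breakdown, turned from 0.38 to -0.045 without L-RFI steer 1. None of the leukocyte, interferon and liver genes had an unadjusted p-value under 0.05. One endothelial gene (SOX18) and 1 matrix gene (POSTN) were kept, with values of -0.12 (SE 0.44) and -0.26 (SE 0.37). The 14 defining genes of skeletal muscle, like those of glycolysis, heat shock, the clock, smooth muscle and Schwann cells, had no symbol at hand, so the labelled tissue was checked only through the fibre genes above.

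Whether the RFI difference in HF-H1 differed from that in the nearest comparisons was tested gene by gene as a difference of differences. Those were Charolais (CH) steers on the same diet (CH-H1, 18 libraries), HF steers on grass (HF-ZG, 19 libraries) and HF steers in the second concentrate phase (HF-H2, 16 libraries). The edgeR test called 0 of 10695 (0%), 0 of 10686 (0%) and 0 of 10448 (0%) genes at an adjusted p-value under 0.1. At an unadjusted p-value under 0.05 it found 180 (1.68%), 591 (5.53%) and 229 (2.19%). DESeq2 and limma voom with quality weights also called 0 genes in each.

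Against CH-H1 the mitochondrial genes pointed in opposite directions. The value of MT-CO3 was 1.05 in HF-H1 and -0.45 (SE 0.39) in CH-H1, a difference of 1.501 (SE 0.54, unadjusted p = 0.0078, adjusted p = 1.00). For MT-ND3 the difference was 1.69 (SE 0.56, unadjusted p = 0.0047, adjusted p = 1.00). NFKBIA, the inhibitor of NF-kappa B, had the smallest p-value with -0.24 in HF-H1 and 0.99 in CH-H1 (difference -1.24, SE 0.34, unadjusted p = 0.00081, adjusted p = 1.00). It was followed by CHRND with 0.95 and -1.76 and by HES1, a Notch target, with -0.17 and 0.96. Fat genes lay below 0 in both breeds, and their differences ran from -0.08 (SE 0.95) for CIDEC, at -1.09 in HF-H1 and -1.004 in CH-H1, to -1.34 (SE 0.89, unadjusted p = 0.14, adjusted p = 1.00) for ELOVL6. ANGPTL8 was not among the genes tested there. Without H-RFI steer 8 the HF-H1 values of CIDEC and ELOVL6 were -0.40 and -0.41.

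Against HF-ZG the mitochondrial values were alike in direction, with MT-CO3 at 0.92 (SE 0.54) in HF-ZG and a difference of 0.10 (SE 0.64). As 6 steers are in both comparisons, the 2 values are not independent. The 5 named genes with the smallest p-values against HF-ZG had values above 0 in HF-H1 and below 0 in HF-ZG. SNX10, a sorting nexin, had 0.24 and -1.75 (difference 2.00, SE 0.54, unadjusted p = 0.00069, adjusted p = 0.704). Pln, phospholamban, the brake of the calcium pump in slow muscle, had 0.34 and -1.24. UBD had 0.80 and -1.44, SLC4A7, a bicarbonate transporter, 0.13 and -1.59, and ACKR4, a chemokine scavenger, 0.46 and -1.81.

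Against HF-H2 the values of THRSP, ELOVL6, FABP4 and CIDEC lay below 0 in HF-H1 and above 0, by less than their errors, in HF-H2. Of the fat genes ANGPTL8 had the smallest p-value, with -1.78 and 0.62 (difference -2.36, SE 1.09, unadjusted p = 0.037, adjusted p = 0.9996). ELOVL6 had -1.58 and 0.43 (difference -1.95, SE 0.97, unadjusted p = 0.051, adjusted p = 1.00) and THRSP -1.47 and 0.15 (difference -1.59, SE 1.1). Without H-RFI steer 8 of HF-H1 the HF-H1 values of ANGPTL8, ELOVL6 and THRSP were -0.42, -0.41 and -0.38. The smallest p-values belonged to EGR1, with -0.10 in HF-H1 and 2.10 in HF-H2 (difference -2.21, SE 0.70, unadjusted p = 0.0032, adjusted p = 1.00), to VNN2, of the pantetheinase family, with 0.83 and -1.76, and to ASCC1 with 0.86 and -0.47. MT-CO3 was at 0.10 (SE 0.48) and MT-ND3 at 0.24 (SE 0.51) in HF-H2, with differences of 0.92 (SE 0.56) and 0.73 (SE 0.60). MYH4 had 0.15 and 2.22, and the difference for IFIT3 was 1.66 (SE 0.71). Some HF steers stand in both phases compared, 6 in H1 and ZG and 5 in H1 and H2.

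**Figure D5:**
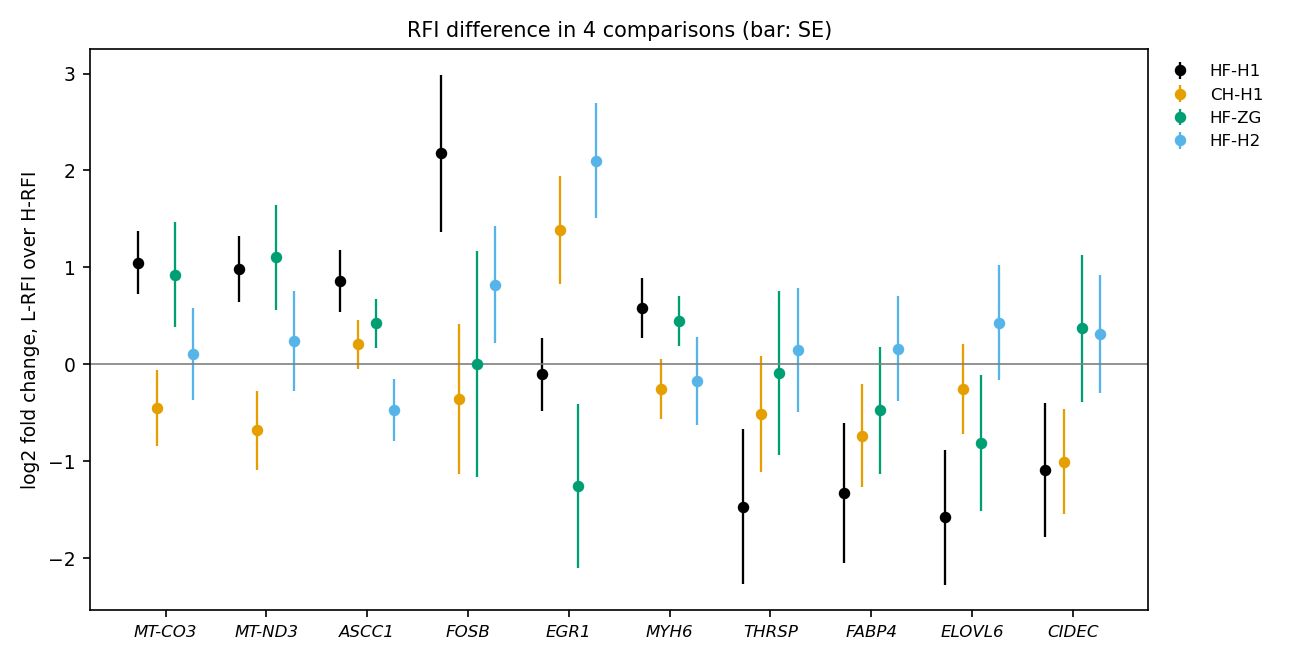
Log2 fold change of L-RFI over H-RFI, with bars of 1 SE, for 10 genes in HF-H1, CH-H1, HF-ZG and HF-H2. MT-CO3 and MT-ND3 lie above 0 in HF-H1 and HF-ZG, nearer 0 in HF-H2 (0.10 and 0.24) and below 0 in CH-H1. The 4 fat genes at the right lie lowest in HF-H1 over all its steers. Without H-RFI steer 8 THRSP, FABP4, ELOVL6 and CIDEC were at -0.38, -0.09, -0.41 and -0.40 in HF-H1. THRSP, FABP4 and CIDEC were then lower in CH-H1 (-0.51, -0.74 and -1.004) and ELOVL6 in HF-ZG (-0.82).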

How the data were processed

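RNA was sequenced from muscle biopsies with a stranded kit. The authors aligned the reads with STAR and deposited raw counts per gene in 3 columns (unstranded and either strand), neither normalized nor filtered. The study's methods name the assembly ARS-UCD1.2, whereas the submitters' processing notes name UMD3.1, so no coordinate was used. Of the 24616 genes, 151 could be paired with a symbol, through the study's supplementary list, and other genes appear by identifier only.

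Reverse-strand counts were used, rows that name no gene were removed, and libraries with under 1000000 counts were left out. Genes that reached 1 CPM in 50% or more of the libraries entered the test, after TMM scaling. L-RFI was compared with H-RFI by edgeR's quasi-likelihood test with Benjamini-Hochberg adjustment over all genes kept (adjusted p-value under 0.1, fold change above 1.5, the study's thresholds). The RFI difference was set against that of 3 other comparisons by an interaction contrast. Pairs of genes were compared on the log2 scale, with 0.5 counts added, by 100000 permutations.

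The members and gene lists were chosen with earlier results of these data known. Named were the genes with a symbol on the study's list, the 10 of smallest p-value in each direction, up to 4 per list with its defining member, and the 5 of smallest p-value in each interaction. Each p-value within HF-H1 and against CH-H1 measures the spread between steers. The main tests against HF-ZG and HF-H2 treated all libraries as independent, although 6 and 5 steers were in both phases. The number of library pairs with identical counts was 0. The floor of 3 counts covers counting error only. The scripts were tested on simulated data. Alternatives changed the tool, scaling, filter, strand column, covariates and steers. Models were fitted in R 4.3.3 (edgeR 4.0.16). DESeq2 1.42.0 and voom, from limma 3.58.1, served as alternatives. Permutations ran in scipy 1.17.1 under Python 3.11.15.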

Additional observations from a re-analysis of the deposited data

Results flagged for a closer look

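Among the 9 L-RFI libraries, Dixon's criterion for a single outlying value (0.493 at this group size) was passed by 2 of 53 genes and 4 of 8 library measures examined. Chance alone passes about 1 in 20 groups. The 11 H-RFI libraries are too many for the criterion and were not examined.

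VNN2 reached 11.7 normalized CPM in L-RFI steer 4, against 2.21 in the next steer. ADAMTS8 reached 23.3 in L-RFI steer 9, against 2.75 in the next. The library of L-RFI steer 6 had 13.3% unmapped reads (next 1.62%), 35.0% reads mapped to several places (next 7.92%) and 45.7% of its reads on genes (next 74.0%). In the library of L-RFI steer 4 the reverse strand held 97.56% of the stranded gene counts, against 98.66% in the next. No difference of the RFI effect between comparisons passed its threshold.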

How the results depend on the processing

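The count of called genes was 0 over the 20 steers and stayed 0 in 16 other settings and whichever of the 20 steers was left out. The number at an unadjusted p-value under 0.05 ran from 132 in one model of all groups to 714 without a filter on low counts, and was 600 without the TMM factor and 459 without L-RFI steers 6 and 10 (both settings added after the data were seen). Leaving out 1 steer gave 210 (without L-RFI steer 4) to 592 (without H-RFI steer 4). The interactions also stayed at 0. Against HF-ZG, limma voom with quality weights gave 2397 genes at an unadjusted p-value under 0.05 with a smallest adjusted p-value of 0.11. With the steer as replicate block (consensus correlation 0.491 for HF-ZG and -0.206 for HF-H2) 0 genes were called in either, with 1273 and 197 genes at an unadjusted p-value under 0.05. Within HF-H1 each steer appears once and no block applies.

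Of 52 genes, none passed the threshold in any setting. The sign turned in 12 of 621 values of the planned settings and in 8 of 104 values of the added settings. Leaving out 1 steer turned it in 24 of 1040. Signs turned in values near 0 but also in large ones, such as FOSB (2.17 over the 20 steers), ZNF628 (1.28) and CSRNP1 (1.12). With quality weights the log2 fold change turned to -0.41 for FOSB, -0.00945 for CSRNP1, 0.32 for CSRP3, -0.0192 for CHRND, -0.20 for ORM1, -0.33 for ALB, -0.11 for UBD, -0.16 for CD3E, -0.11 for PTPRC and 0.0501 for HES1. With the share of unmapped or off-gene reads as covariate ALB was at -0.0365, and in DESeq2 VNN2 was at -0.0676. Without the TMM factor PDK4 was at -0.0406, MYH4 -0.0442, DDIT4 -0.0331, ALB -0.27 and PTPRC -0.19. Without L-RFI steers 6 and 10 CSRP3 was at 0.0018, EEFSEC -0.22 and ZNF628 -0.11. Leaving out 1 steer at a time gave, where a sign turned, -0.76 to 0.041 for FASN, -0.073 to 0.54 for PDK4, -0.40 to 0.079 for EGR1, -0.37 to 0.26 for CSRP3, -0.081 to 0.40 for GSTM3, -0.088 to 1.29 for ORM1, -0.40 to 0.85 for ALB, -0.14 to 0.64 for CD3E, -0.31 to 0.23 for PTPRC, -0.24 to 0.21 for HES1, -0.018 to 0.24 for SLC4A7 and -0.066 to 1.13 for VNN2. The steer whose loss turned the sign was L-RFI steer 4 for ORM1, ALB, CD3E and VNN2, L-RFI steer 5 for PDK4 and SLC4A7, L-RFI steer 6 for GSTM3, H-RFI steer 5 for HES1 and H-RFI steer 8 for FASN, while any of 4 to 6 steers turned EGR1, CSRP3 and PTPRC.

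The pair FOS and EGR1 had r = 0.36 and the pair MYH6 and MYL6B r = 0.38 without the TMM factor, neither past an adjusted permutation p of 0.05. Depth kept its direction with the shallow library in, at -0.267 (p = 0.238, two-sided exact permutation test). The cause of these changes was not tested. At these depths a gene below 0.639 CPM cannot be told from absent in the shallowest library.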
